A study of Mus musculus with 10 samples.

Results

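The genes examined here are 9 regulators of the passage through the G1 phase of the cell cycle: the D-type cyclins Ccnd1, Ccnd2 and Ccnd3, the kinases Cdk4 and Cdk6, the kinase inhibitors Cdkn1b (p27) and Cdkn2c (p18), the phosphatase Cdc25a and the ubiquitin-conjugating enzyme Cdc34. They were taken from the 18193 genes that the array annotation names, as all probe sets assigned to exactly 1 of these symbols. This gave 26 of the 45101 probe sets on the array, a probe set being a group of short oligonucleotides that reads 1 transcript. Of these, 23 passed the filter on dim signals and were tested, and 3 did not.

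The arrays measured RNA from limb buds of mouse embryos in which Dicer could be deleted from the limb mesenchyme. A parent heterozygous for a floxed Dicer allele and carrying the prxcre transgene was crossed with a parent homozygous for the floxed allele, so every embryo of the cross inherited a floxed allele. The prxcre transgene expresses Cre recombinase in limb bud mesenchyme, so other cells of the limb bud, such as surface ectoderm, blood cells and vessel lining, keep their Dicer alleles and contributed RNA to both groups. The labels put 5 arrays in the wild type group and 5 in the Dicer mutant group, each numbered 1 to 5. The sources used here do not give the embryonic stage or the number of embryos per array, nor whether heterozygous embryos count as wild type. Since the labels do not state that the arrays of a group came from separate embryos, p-values measure only the spread between these samples.

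D-type cyclins bind and activate Cdk4 or Cdk6, and the active kinases phosphorylate the retinoblastoma protein, which releases E2F factors and starts the transcription of genes for DNA replication. Cdkn2c binds Cdk4 and Cdk6 and keeps the cyclins off, Cdkn1b inhibits cyclin E and Cdk2, Cdc25a removes inhibitory phosphates from Cdk2, and Cdc34 works with a ubiquitin ligase that marks Cdkn1b for degradation. In the limb bud, mesenchymal cells divide while the bud grows out, and D-type cyclins are regulated there by growth factor signals. Dicer cuts precursor hairpins into mature microRNAs, and several of these genes are textbook microRNA targets. The let-7 family represses Cdk6, Cdc25a, Ccnd2 and Cdc34, the miR-15 and miR-16 family represses Ccnd1, Ccnd3 and Cdk6, miR-34a represses Ccnd1, Cdk4 and Cdk6, and miR-221 and miR-222 repress Cdkn1b.

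The mature forms of these microRNAs are shown from RefSeq (GRCm38.p6), because they are the Dicer products through which the members are known to be controlled. Each is written 5′ to 3′, with the seed, bases 2 to 8, in capitals. The arrays did not measure microRNAs, so their levels in these limb buds were not examined.
mmu-let-7a-5p: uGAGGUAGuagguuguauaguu
mmu-let-7g-5p: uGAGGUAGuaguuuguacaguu
mmu-miR-16-5p: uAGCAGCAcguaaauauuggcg
mmu-miR-15a-5p: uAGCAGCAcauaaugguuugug
mmu-miR-34a-5p: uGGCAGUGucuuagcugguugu
mmu-miR-221-3p: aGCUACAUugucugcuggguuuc
mmu-miR-222-3p: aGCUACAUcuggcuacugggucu
The let-7 members share the seed GAGGUAG, miR-15a and miR-16 share AGCAGCA, and miR-221 and miR-222 share GCUACAU.

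The promoters of 7 of the 9 genes were found in the RefSeq table. Those of Cdk4, Cdc25a and Cdk6 are shown because they hold matches to a Myc or E2F motif, and the windows of Ccnd3, Cdc34, Cdkn1b and Cdkn2c hold neither. Each window is the 250 bases before the annotated start, on the plus strand of GRCm38.p6: chr10:127063285-127063534 for Cdk4, chr9:109875329-109875578 for Cdc25a and chr5:3343643-3343892 for Cdk6. Capitals mark matches on either strand to CACGTG, the E-box that Myc proteins bind, and to TTTNNCGC, a loose form of the E2F site in which N is any base. The 2 motifs have no overlapping matches in these windows.
Cdk4 promoter: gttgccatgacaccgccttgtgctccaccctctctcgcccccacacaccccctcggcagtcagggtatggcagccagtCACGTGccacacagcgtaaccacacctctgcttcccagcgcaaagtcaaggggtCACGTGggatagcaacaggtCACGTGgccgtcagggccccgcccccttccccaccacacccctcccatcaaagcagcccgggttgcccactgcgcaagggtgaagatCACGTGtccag
Cdc25a promoter: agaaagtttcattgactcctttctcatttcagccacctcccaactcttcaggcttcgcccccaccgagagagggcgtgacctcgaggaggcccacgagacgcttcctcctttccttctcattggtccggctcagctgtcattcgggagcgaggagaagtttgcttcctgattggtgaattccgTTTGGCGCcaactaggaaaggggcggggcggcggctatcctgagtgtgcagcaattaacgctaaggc
Cdk6 promoter: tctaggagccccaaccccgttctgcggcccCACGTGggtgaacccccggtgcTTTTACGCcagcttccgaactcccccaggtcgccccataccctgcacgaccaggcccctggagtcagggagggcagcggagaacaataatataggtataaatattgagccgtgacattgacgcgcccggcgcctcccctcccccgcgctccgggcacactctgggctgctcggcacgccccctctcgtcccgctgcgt
The Cdk4 window held CACGTG 4 times, beginning 172, 118, 98 and 11 bases before the start. Of 32851 promoters of the same length, 6.02% held this motif at least once, and 7 (0.0213%) held it 4 times or more. The Cdc25a window held TTTNNCGC 1 time, 67 bases before the start, a motif found in 4.28% of all promoters. In the Cdk6 window each motif occurred 1 time, CACGTG at 220 and TTTNNCGC at 198 bases before the start. At the 2 free bases the E2F match had TA in Cdk6 and GG in Cdc25a, so the Cdk6 match rests on the loose form. A match describes the letters only, and binding was not measured.

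The targeted gene was read first, because it checks the labels. The probe set 1427941_at of Dicer1 read 425, 233, 372, 390 and 706 in arrays labelled wild type 1 to 5 and 226, 360, 221, 215 and 205 in those labelled Dicer mutant 1 to 5. The signal was therefore lower in the mutant array at numbers 1, 3, 4 and 5 and higher in it at number 2, and the second Dicer1 probe set, 1460571_at, showed the same order (551 in wild type 2 and 774 in Dicer mutant 2). Both arrays numbered 2 went against their labels, so each result is given over the 10 arrays as labelled and over the 8 arrays left without them. In the 10 arrays the log2 fold change of 1427941_at was -0.74 ± 0.25 (SE, limma), and it was not called. In the 8 arrays it was -1.08 ± 0.18 (SE, limma, adjusted p = 0.0272). The call held in 3 of 8 fits that left out 1 of these arrays (log2 fold changes from -1.32 to -0.83 over all settings). Dicer1 itself decided which arrays were left out, so its 8-array p-value is not a separate check of the labels. All 10 limb mesenchyme markers, including Prrx1, Prrx2 and Hand2, passed the filter. Their summed signal ranged from 13157 to 16232 in the 5 wild type arrays and from 13484 to 15854 in the 5 Dicer mutant arrays. In the 8 arrays 3 of these 10 markers were above 0, the largest being Tbx4 (0.58, limma adjusted p = 0.157), and none was called. With the replicate number as a block in the fit, Tbx4 was called (limma adjusted p = 0.00705), as were 5.41% of all probe sets. Median signals of the 10 arrays lay between 145.9 and 152.8. In RNA from whole limb buds, fewer cells of a type and less RNA per cell cannot be told apart.

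No member passed the test for a difference between the groups. In the 10 arrays as labelled, limma called 0 of the 23 tested member probe sets and 0 of all 22519 (0%) at an adjusted p below 0.05. In the 8 arrays it called 0 of 23, against 378 of all 22519 (1.68%, or 2.12% of genes read by 1 representative probe set). Unadjusted p-values below 0.05 were found for 1 of 23 members (4.35%) and 2.81% of all probe sets in the 10 arrays. In the 8 arrays they were found for 3 of 23 members (13%) and 12.7% of all, and those 3 were the 3 probe sets of Ccnd1. A replicate block in the 8 arrays gave 0 of 23 members called against 1219 of all probe sets (5.41%), and the lowest member adjusted p was 0.0870, for Ccnd1. The share of member probe sets past an unadjusted p was thus close to that of all probe sets.

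The signs of the members were uneven while their sizes were small. Fold changes were above 0, meaning a higher signal in the arrays labelled Dicer mutant, for 18 of 23 member probe sets in the 8 arrays, against 47.7% of all. The median log2 fold change was 0.073 over the members and -0.0064 over all tested probe sets, and the median absolute log2 fold change was 0.088 over the members and 0.083 over all. The members ranged from -0.12 to 0.27. The 10 arrays gave 18 of 23 above 0, a median of 0.071 and a range from -0.096 to 0.24, with 40.3% of all above 0 and a median of -0.021 over all. Several probe sets read the same gene, so these counts are not counts of independent genes.

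**Figure D1:**
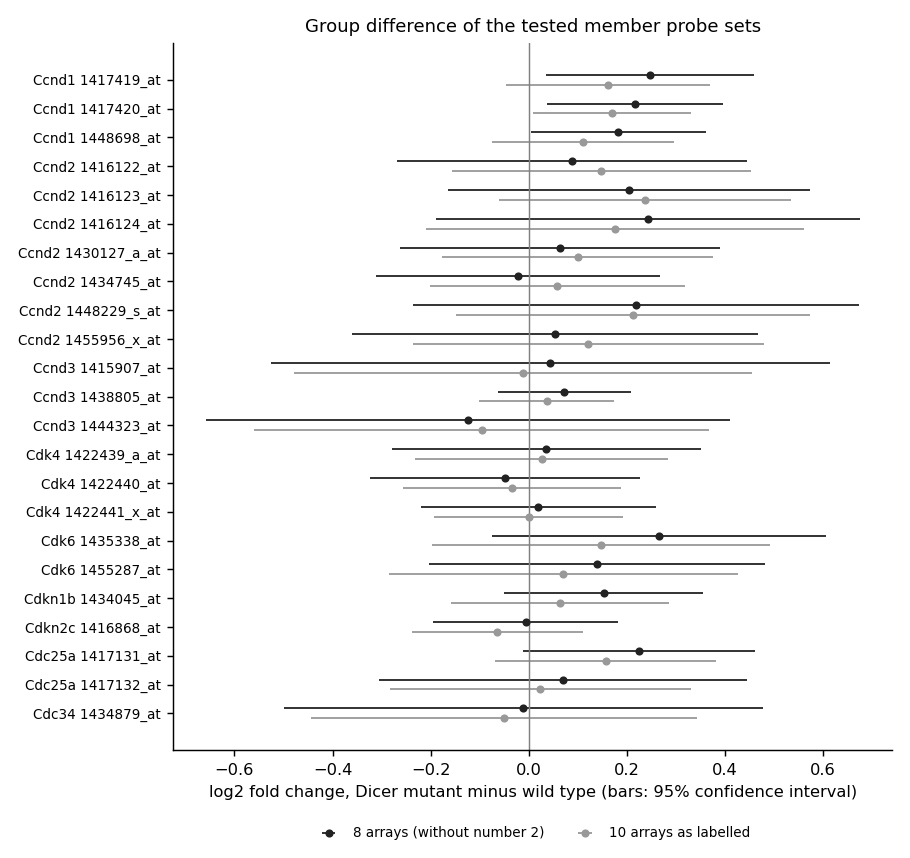
Log2 fold change of each tested member probe set (rows), arrays labelled Dicer mutant minus arrays labelled wild type, with 95% confidence intervals from limma, in the 8 arrays without number 2 (black) and in all 10 (grey). In the 8 arrays the intervals of the 3 Ccnd1 probe sets lie above 0 before adjustment for multiple testing, and every other member's interval includes 0.

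Ccnd1, the D-type cyclin most directly tied to growth factor signals, gave the smallest p-values among the members in the 8 arrays without a replicate block. Its brightest probe set, 1417420_at, read 1933, 2149, 2195, 2056 and 1760 in wild type 1 to 5 and 2141, 2119, 2430, 2326 and 2316 in Dicer mutant 1 to 5. The mutant array was higher at numbers 1, 3, 4 and 5 and slightly lower at number 2 (a log2 difference of -0.02), and the groups overlapped, since wild type 3 lay above Dicer mutant 1. In the 8 arrays the log2 fold change was 0.22 ± 0.08 (SE; limma adjusted p = 0.273), a ratio of 1.16 with a 95% interval from 1.03 to 1.32, and the blocked adjusted p was 0.0870. In the 10 arrays the log2 fold change was 0.17, with an interval from 0.01 to 0.33 before adjustment and an adjusted p of 1.00.

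The other Ccnd1 probe sets gave like values. Probe set 1417419_at read 1258, 1366, 1242, 1277 and 1025 in wild type 1 to 5 and 1462, 1203, 1336, 1334 and 1562 in Dicer mutant 1 to 5. Without number 2 every mutant array lay above every wild type array, which held for 1 of 23 members and for 4.12% of all tested probe sets. The opposite order, every mutant array below every wild type array, held for 0 of 23 members and 4.97% of all. Its log2 fold change in the 8 arrays was 0.25 ± 0.09 (SE; limma adjusted p = 0.295), a ratio of 1.19. The third probe set, 1448698_at, read 1582, 1644, 1590, 1632 and 1450 in wild type and 1876, 1455, 1786, 1564 and 1887 in Dicer mutant arrays. Here the mutant array was higher at numbers 1, 3 and 5 and lower at 4 as well as 2, and the log2 fold change in the 8 arrays was 0.18 ± 0.08 (SE; limma adjusted p = 0.381). Wild type 5 had the lowest signal of all 10 arrays on each of the 3 probe sets, and without it the 8-array log2 fold changes fell to 0.17, 0.16 and 0.15 for 1417419_at, 1417420_at and 1448698_at. The pair numbered 2 lay on the opposite side of 0 from the 8 arrays for all 3 Ccnd1 probe sets. The same was so for 16 of 23 members (69.6%) and 67.8% of all probe sets.

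**Figure D2:**
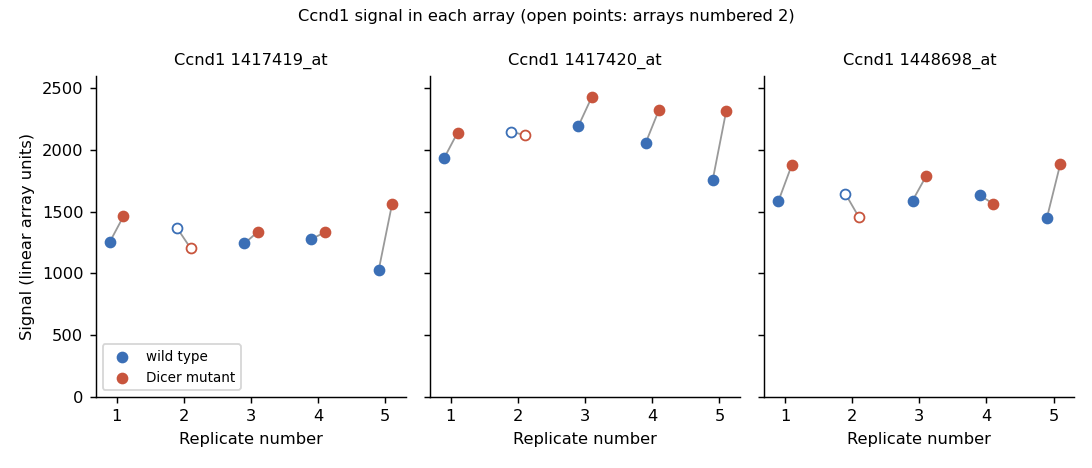
Signal of the 3 Ccnd1 probe sets (vertical axis, linear array units, starting at 0) against replicate number, with wild type in blue and Dicer mutant in red, 1 point per array and a line joining the arrays of a number. At number 2 (open points) the mutant array is the lower one on all 3 probe sets, and wild type 5 is the lowest array on each.

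Ccnd2, the D-type cyclin read by most probe sets here, gave no call and no common size among its 7 tested probe sets. Its representative, 1434745_at, read 3103, 2627, 3253, 2349 and 2454 in wild type 1 to 5 and 3086, 3415, 3001, 2435 and 2433 in Dicer mutant 1 to 5. The groups overlapped widely, and the mutant array was higher at numbers 2 and 4 only. The log2 fold change in the 8 arrays was -0.02, with an interval from -0.31 to 0.27. The other 6 were all above 0 in the 8 arrays, from 0.05 for 1455956_x_at and 0.06 for 1430127_a_at to 0.22 for 1448229_s_at and 0.24 for 1416124_at. IDs ending in _x_at or _s_at mark probe sets whose oligonucleotides can match other or several transcripts.

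Some of the larger Ccnd2 values moved with single arrays. For 1448229_s_at the 8-array value was 0.092 without Dicer mutant 1 and 0.40 without Dicer mutant 4. Probe set 1416124_at read 220 in wild type 5 and from 361 to 464 in the other wild type arrays, against 347 to 461 in the mutants. Without wild type 5 its log2 fold change in the 8 arrays was 0.039. Probe set 1416123_at read from 357 to 410 in wild type and 322 (number 3), 378, 461, 488 and 569 (number 5) in Dicer mutant arrays, so the mutant arrays spread more than the wild type ones. Its log2 fold change was 0.20 ± 0.16 (SE, limma, adjusted p = 0.733), and it was 0.068 without Dicer mutant 5.

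Ccnd3, the D-type cyclin prominent in lymphoid and muscle cells, did not differ between the labelled groups beyond its spread. Probe set 1415907_at read 1643, 1683, 1688, 1044 and 1048 in wild type 1 to 5 and 1843, 1432, 1782, 996 and 1048 in Dicer mutant 1 to 5. In both groups the arrays numbered 4 and 5 were low and those numbered 1 to 3 high, with no overlap. The log2 fold change between groups was 0.04 in the 8 arrays (interval -0.53 to 0.61) and -0.01 in the 10. All intervals given here come from the fit without a replicate block, so they include the spread between numbers. With the block the 8-array SE fell from 0.25 to 0.06 for this probe set. It fell from 0.14 to 0.04 for Cdk4 1422439_a_at and from 0.22 to 0.08 for Cdc34, with no call. A dim Ccnd3 probe set, 1444323_at, ran the other way, at 202, 183, 185, 374 and 281 in wild type and 197, 185, 179, 286 and 278 in Dicer mutant arrays, so that numbers 4 and 5 were its highest. The remaining one, 1438805_at, lay between 146 and 183 in every array, near the filter limit of 151.

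Neither kinase gave a call. Cdk4, the partner of D-type cyclins in most tissues, read 3501, 3415, 3573, 2818 and 2544 in wild type 1 to 5 and 3759, 3387, 3471, 2798 and 2713 in Dicer mutant 1 to 5 on probe set 1422439_a_at. Its groups overlapped and its arrays again split by number rather than by label. The log2 fold change in the 8 arrays was 0.04 (interval -0.28 to 0.35), and the other Cdk4 probe sets gave -0.05 and 0.02. The intervals of the 3 Cdk4 probe sets together ran from -0.32 to 0.35, so larger differences between the labelled groups lie outside them.

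Cdk6, the second D-cyclin kinase, had the member probe set with the largest fold change in the 8 arrays. Probe set 1435338_at read 469, 476, 382, 446 and 626 in wild type 1 to 5 and 532, 380, 551, 527 and 677 in Dicer mutant 1 to 5. The mutant array was higher at numbers 1, 3, 4 and 5 and lower at number 2, yet the groups overlapped, because wild type 5 exceeded all mutant arrays but number 5. The log2 fold change in the 8 arrays was 0.27 ± 0.15 (SE; limma adjusted p = 0.554), with an interval of the ratio from 0.950 to 1.52, and the blocked adjusted p was 0.122. The representative probe set 1455287_at read 588, 520, 483, 635 and 783 in wild type and 591, 451, 637, 689 and 801 in Dicer mutant arrays. It too was higher in the mutant array at numbers 1, 3, 4 and 5, with a log2 fold change of 0.14 (interval -0.20 to 0.48). Leaving out wild type 3 lowered these 8-array values to 0.16 for 1435338_at and 0.024 for 1455287_at, and leaving out wild type 5 raised them to 0.40 and 0.26. The third Cdk6 probe set, 1460291_at, lay between 56.6 and 86.3 and was not tested.

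The inhibitors gave no call. Cdkn1b, which holds cells in G1 by binding cyclin E and Cdk2, read 541, 724, 534, 519 and 638 in wild type 1 to 5 and 672, 592, 607, 615 and 584 in Dicer mutant 1 to 5 on probe set 1434045_at. The mutant array was higher at numbers 1, 3 and 4, and wild type 2 was the highest of all 10. The log2 fold change in the 8 arrays was 0.15 ± 0.09 (SE; limma adjusted p = 0.582), with an interval from -0.05 to 0.36. Its second probe set, 1419497_at, at 115 to 160, was not tested. Cdkn2c, the Cdk4 and Cdk6 inhibitor, read 256, 276, 266, 261 and 250 in wild type and 283, 225, 279, 242 and 229 in Dicer mutant arrays on 1416868_at. Its wild type arrays lay inside the range of the mutant arrays, and its log2 fold change was -0.0059 (interval -0.19 to 0.18).

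Cdc25a, the phosphatase that activates Cdk2, came next after Ccnd1 in its unadjusted p in the 8 arrays without a replicate block. Probe set 1417131_at read 748, 671, 666, 649 and 574 in wild type 1 to 5 and 783, 620, 758, 679 and 857 in Dicer mutant 1 to 5. The mutant array was higher at numbers 1, 3, 4 and 5 and lower at number 2, and the groups overlapped. Its 8-array log2 fold change was 0.22 ± 0.11 (SE; limma adjusted p = 0.431), a ratio of 1.17. The brighter probe set 1417132_at read 912, 855, 855, 638 and 661 in wild type and 907, 764, 975, 657 and 688 in Dicer mutant arrays, with a log2 fold change of 0.07 (interval -0.30 to 0.45). The 2 Cdc25a probe sets thus ranked the arrays differently: numbers 4 and 5 were the lowest in both groups on 1417132_at, but Dicer mutant 5 was the highest array on 1417131_at. The third, 1445995_at, lay between 138 and 161 and was not tested.

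Cdc34, the ubiquitin-conjugating enzyme, was read by 1 probe set, 1434879_at. It gave 1001, 901, 956, 694 and 556 in wild type 1 to 5 and 949, 782, 933, 620 and 652 in Dicer mutant 1 to 5. The mutant array was higher at number 5 only. For Cdc34 the log2 fold change in the 8 arrays was -0.01 (interval -0.50 to 0.48), and the split by number was wider than any difference between the labels.

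At the median, but not in every gene, the members varied more with the replicate number than with the label. The median absolute log2 difference between the labelled groups was 0.088 over the members and 0.083 over all probe sets in the 8 arrays. There the label difference was the larger for all tested Ccnd1 and Cdkn1b probe sets and for some of Ccnd2, Ccnd3 and Cdc25a. No label says what a number marks, and the grouping of numbers 1 to 3 against 4 and 5 came from the data, along the first principal component (37.7% of the variance), so these values are a description without a test. Every array numbered 4 or 5 lay below every array numbered 1 to 3 for 10 of 23 member probe sets, against 11.7% of all tested probe sets. Every such array lay above for 1 of 23, the Ccnd3 probe set 1444323_at, against 8.34% of all. The median absolute log2 difference between these sets of numbers, taken over all 10 arrays, was 0.29 over the members and 0.13 over all probe sets. All probe sets thus also varied more with the number than with the label. The median difference, numbers 4 and 5 minus 1 to 3, was -0.15 over the members and -0.0075 over all.

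The 10 low probe sets read Ccnd2 (4 of 7), Ccnd3 (1415907_at only), Cdk4 (3 of 3), Cdc25a (1417132_at only) and Cdc34. Of the other tested probe sets of Ccnd3, 1444323_at went the other way (a log2 difference of 0.68) and 1438805_at was near level (0.04). Cdc25a 1417131_at was near level too (-0.05). Geometric means at numbers 1 to 3 over those at 4 and 5 gave a ratio of 1.62 for Ccnd3 1415907_at, 1.46 for Cdc34, 1.33 for Cdc25a 1417132_at, 1.29 for Cdk4 1422439_a_at and 1.27 for Ccnd2 1434745_at. Cdk6 went the other way, with log2 differences of 0.29 and 0.42 on its tested probe sets, although its arrays overlapped. Ccnd1 was near level, at -0.03, -0.04 and -0.02, as were Cdkn1b (-0.05) and Cdkn2c (-0.10).

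**Figure D3:**
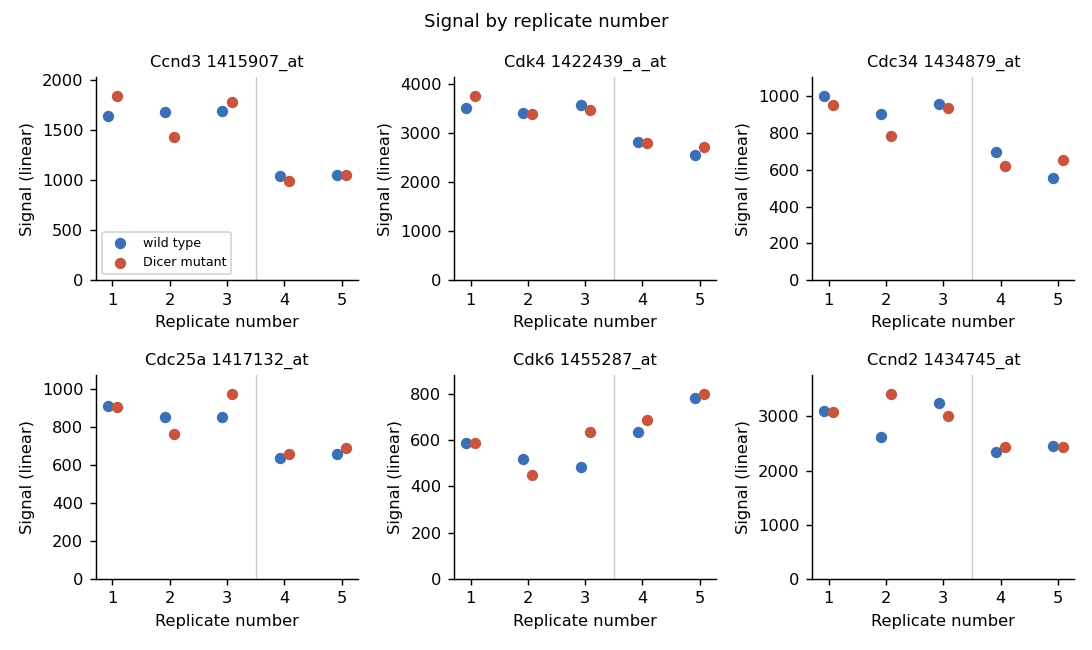
Signal (vertical axis, linear array units, starting at 0) of the representative probe sets of Ccnd3, Cdk4, Cdc34, Cdc25a, Cdk6 and Ccnd2 against replicate number, wild type in blue and Dicer mutant in red, 1 point per array. In both groups numbers 4 and 5 are below numbers 1 to 3 for all but Cdk6, whose highest arrays are wild type 5 at 783 and Dicer mutant 5 at 801.

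The summed signals of some cell type markers moved with the same numbers. Skeletal muscle markers, which include Myod1, Myog and Actc1, summed to 3728 to 7327 at numbers 1 to 3 and 1969 to 4031 at numbers 4 and 5. Limb mesenchyme markers summed to 14750 to 16232 and 13157 to 14159, and cartilage markers to 5432 to 6701 and 4216 to 5190. Endothelial markers went the other way, from 1223 to 1386 at numbers 1 to 3 and from 1405 to 1853 at numbers 4 and 5. The red cell sums were 20583 to 31552 and 29963 to 35663. Both the muscle and the red cell sums overlapped between these sets of numbers. Gene by gene, every array numbered 4 or 5 lay below every other for 3 of 7 muscle, 2 of 10 mesenchyme and 1 of 5 cartilage genes. It lay above for 0 of 7, 1 of 10 and 1 of 5, and for 1 of 5 endothelial and 1 of 4 red cell genes. The part of red cells in the members' values, like that of the other cell types, was not tested. Proliferation markers overlapped, at 35523 to 39499 and 34527 to 38844, and 4 of 17 were lower, and 1 of 17 higher, in every array numbered 4 or 5 than in every other, against 11.7% and 8.34% of all tested probe sets. Between the labelled groups in the 8 arrays, 1 of 5 cartilage genes was called lower, Col11a1 (-0.58, limma adjusted p = 0.0314), as was 1 of 2 nerve genes, Gap43 (-0.34, limma adjusted p = 0.0466). Of all genes 2.12% were called, and 2 of the 5 cartilage genes were above 0. These calls were not rerun with single arrays left out.

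Across the 10 arrays the representative probe sets fell into like and unlike patterns. Pearson's r of log2 signal was 0.958 for Ccnd3 with Cdk4, 0.967 for Ccnd3 with Cdc25a and 0.945 for Ccnd3 with Cdc34. Cdk6 ran against Ccnd2 (-0.761) and Cdk4 (-0.764). The representative of Ccnd1 followed none of the other representatives, with r from -0.08 to 0.25. Other probe sets were not compared in this way. Cdc25a 1417131_at, which is not a representative, shared its lowest array (wild type 5, at 574) and its highest (Dicer mutant 5, at 857) with Ccnd1 1417419_at. These correlations describe 10 arrays that fall into the sets of numbers just described, and the arrays share that split, so no p is given.

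**Figure D4:**
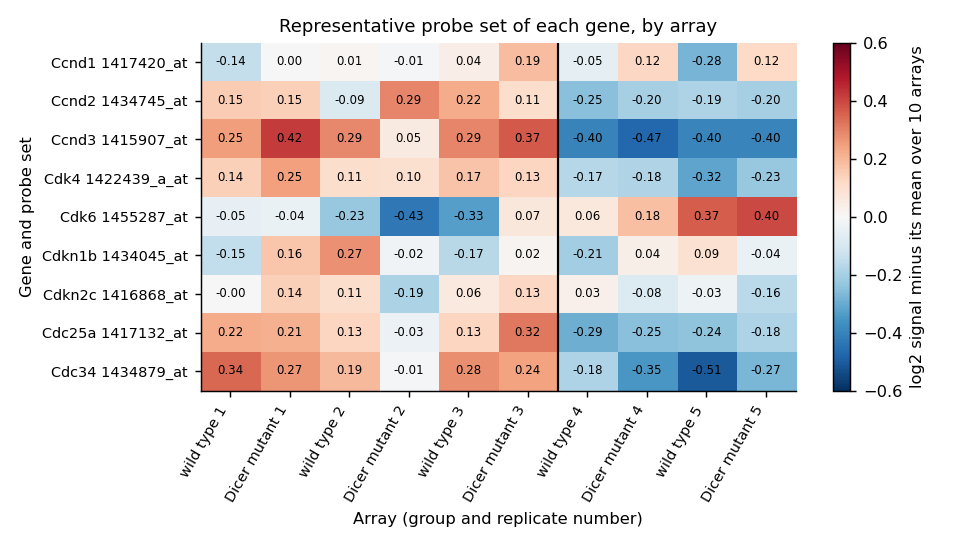
Log2 signal of the representative probe set of each of the 9 genes (rows) in each array (columns, ordered by number), minus its mean over the 10 arrays, with red above and blue below that mean. To the right of the black line, at numbers 4 and 5, Ccnd2, Ccnd3, Cdk4, Cdc25a and Cdc34 are below their means in both groups, and Cdk6 is above its own.

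The named genes with the most similar pattern over the 10 arrays were taken from 11592 other genes, again as a description. For Ccnd3 they were Txndc5 (r = 0.991), Gpc1 (0.988) and Vps72 (0.987), and for Cdk4 they were Chtf8 (0.983), Mtx1 (0.982) and Psmc5 (0.979). For Ccnd2 they were Pacs2 (0.972), Icmt (0.968) and Sorbs3 (0.965). For Cdk6 they were Pus7 (0.984), Eogt (0.966) and Fndc3c1 (0.959). The closest for Ccnd1 were Bnip2 (0.958), Akap8 (0.949) and Nr2c2 (0.942). Each of these genes was named for 1 member only.

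The genes around the members in the pathway gave 2 calls in the 8 arrays, where 2.12% of all 11601 genes were called. All counts below are of genes, each read by its representative probe set, and in the 10 arrays none of the lists had a called gene. Of 13 pocket protein and E2F genes, the targets of Cdk4 and Cdk6 and the factors they control, 1 rose and 0 fell in the 8 arrays. The called gene was E2f5, a repressive E2F, with a mean of 851 in wild type and 1133 in Dicer mutant arrays and a log2 fold change of 0.41 ± 0.08 (SE, limma, adjusted p = 0.0349). Leaving out 1 array at a time kept this call in 2 of 8 cases, without Dicer mutant 1 and without wild type 5. The list's 13 log2 fold changes were all above 0 in the 8 arrays, with a median of 0.14, against 47.7% above 0 and a median of -0.0064 over all tested probe sets. That share counts probe sets rather than genes, and the list was chosen with earlier results of these data known. In the 10 arrays the list's median was 0.088 and E2f6 was below 0 (-0.057), against a median of -0.021 over all tested probe sets. Of 11 genes upstream of the D-type cyclins, 0 rose and 1 fell: Jun, a growth factor-induced transcription factor that activates Ccnd1, went from 427 to 295, a log2 fold change of -0.53 ± 0.10 (SE, limma, adjusted p = 0.0410). The Jun call held in 1 of 8 such cases, without wild type 5, and was lost with quantile normalization and with no filter on dim probe sets. Over all 18 settings the log2 fold change ran from 0.38 to 0.46 for E2f5 and from -0.72 to -0.35 for Jun. The upstream list had a median of 0.024.

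The other pathway lists gave no call in either direction. Of 12 partners at the G1 to S step, which include cyclin E and Cdk2, none passed the test in the 8 arrays. The smallest p-values there were those of Cdk1, the mitotic kinase (0.14 ± 0.04 SE, limma adjusted p = 0.196), and Mnat1, a subunit of the kinase that activates Cdks (-0.23 ± 0.09 SE, limma adjusted p = 0.303). The 4 other tested CDK inhibitors had log2 fold changes below 0, with a median of -0.084, and 0 calls. Among them Cdkn2d, p19, gave -0.22 (limma adjusted p = 0.583) and Cdkn1c, p57, gave -0.09 (limma adjusted p = 0.856). Of 8 genes of the SCF ubiquitin ligase, with which Cdc34 works, none was called, and the median was 0.010. The smallest p-values belonged to Fbxw7, which recognises cyclin E (0.11, limma adjusted p = 0.644), and Ube2r2, the close relative of Cdc34 (-0.15, limma adjusted p = 0.719).

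None of 17 proliferation markers was called, and their median was 0.059. The smallest p-values there were those of Birc5, survivin (-0.24 ± 0.07 SE, limma adjusted p = 0.131), and Mcm3, a subunit of the replicative helicase (0.19 ± 0.07 SE, limma adjusted p = 0.248). Their summed signal ranged from 34527 to 39020 in the 4 wild type arrays and from 37246 to 39499 in the 4 Dicer mutant arrays, so the groups overlapped.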

How the data were processed

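Limb bud RNA was made into biotinylated cRNA for Affymetrix arrays, per the labels' protocols. The authors deposited linear intensity values, and the submitters' processing notes name GCOS 1.3. The sources used here do not give how probes were summarized, scaled and called as detected. The 2% trimmed means of the arrays differed by 4.62%, under a limit of 10%, so no normalization was added. The deposited values were raised to at least 1 and put on the log2 scale. Probe sets with a mean log2 at or above the median of all but 64 control probe sets (a signal of 151) were tested in R 4.3.3 by limma 3.58.1 (lmFit, then trended eBayes), adjusting p-values by Benjamini-Hochberg over all 22519 at 0.05. The fit was also run on simulated data with independent noise in each array. Those lack the shared deviations of real arrays, so that run does not show how the fit behaves on these data.

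All member probe sets were accounted for. The brightest tested probe set stood for a gene, _x_at and _s_at only where it had no other. Of each pathway list, called genes were named or, where none was called, the 2 with the smallest p in the 8 arrays. For 5 members the 3 genes of highest r were named. The members, the lists and the 8-array comparison were chosen with earlier results of these data known. The annotation gave 34945 probe sets 1 symbol, 932 several and 9160 none, and the gene identifiers of all 9 members were found in RefSeq GRCm38.p6.

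Arrays of the same number deviated together from the group means, with correlations of 0.55, 0.55, 0.71 and 0.32 in the 8 arrays (numbers 1, 3, 4 and 5), all above 0.1, the limit set for taking numbers as paired. The highest correlations with another number were 0.54, 0.54, 0.52 and 0.52, which number 5 did not reach and numbers 1 and 3 barely exceeded. No label states a pairing, and the replicate block is an alternative only. In the 10 arrays number 2 gave -0.18, and the numbers were not taken as paired. Alternatives were quantile normalization, median centring, offsets of 16 and 64, no filter or one at the 70th percentile, no trend, the replicate block, leaving out each array, and sets of numbers alone. Rerunning these for Dicer1, E2f5 and Jun was decided after seeing the data.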

Additional observations from a re-analysis of the deposited data

Results flagged for a closer look

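Among the member probe sets, the signals of each group of 5 arrays were searched for an array far from the others, 52 groups in all, and 1 was found. Chance alone marks about 1 in 20 such groups. On the Ccnd2 probe set 1416123_at, wild type 3 read 410, while the other wild type arrays lay between 357 and 363, and this gap was 0.881 of the group's range. The other Ccnd2 probe sets did not place wild type 3 apart by this measure.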

How the results depend on the processing

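No member probe set was called under any of 20 settings in the 10 arrays or 18 in the 8 arrays, and the lowest adjusted p was 0.0870 in the 8 arrays, with the replicate block, for Ccnd1. In the 10 arrays, where 11 of the 23 member probe sets were followed by value, it was 0.495 among those. For all probe sets in the 8 arrays, 378 calls became 1219 with the replicate block, 812 with numbers 1 and 3 alone and 0 with numbers 4 and 5 alone, and from 93 (without wild type 3) to 745 (without wild type 5) with 1 array left out. Of 411 member log2 fold changes recomputed in the 8 arrays 370 kept their sign, and of 219 for those 11 in the 10 arrays 196 did. Of 23 member probe sets, 10 never changed sign in the 8 arrays.

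The sign changed under these settings. Quantile normalization gave 0.011 for Ccnd3 1415907_at (10 arrays) and 0.0061 for Cdkn2c (8 arrays). Numbers 1 to 3 alone gave 0.0034 for Ccnd3 1415907_at, and in the 8 arrays numbers 1 and 3 gave -0.11 for Ccnd2 1416124_at, -0.032 for Ccnd2 1430127_a_at and 0.11 for Cdkn2c. Numbers 4 and 5 alone gave 0.020 for Ccnd2 1434745_at and -0.034 for Ccnd3 1415907_at in the 8 arrays, and 0.033 for Cdc34 in both comparisons. The cause was not tested.

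Leaving out 1 array at a time in the 10 arrays gave -0.0068 to 0.12 for Ccnd2 1434745_at, -0.12 to 0.10 for Ccnd3 1415907_at, -0.050 to 0.086 for Cdk4 1422439_a_at, -0.020 to 0.19 for Cdk6 1455287_at, -0.053 to 0.090 for Cdc25a 1417132_at and -0.18 to 0.031 for Cdc34. In the 8 arrays it gave -0.0060 to 0.19 for Ccnd2 1416122_at, -0.047 to 0.15 for 1430127_a_at, -0.099 to 0.057 for 1434745_at and -0.072 to 0.16 for 1455956_x_at. It gave -0.10 to 0.19 for Ccnd3 1415907_at and -0.27 to 0.070 for 1444323_at, and -0.056 to 0.11 for Cdk4 1422439_a_at, -0.14 to 0.022 for 1422440_at and -0.057 to 0.077 for 1422441_x_at. Cdkn2c ranged from -0.052 to 0.050, Cdc25a 1417132_at from -0.028 to 0.16 and Cdc34 from -0.17 to 0.11. The number of arrays limits the precision, and without detection calls the distance of dim probe sets from background is unknown.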
